A study of Homo sapiens with 8 samples.

Results

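The 10 genes described here encode long proteins, most of them built largely of coiled coil, and they were compared across 4 conditions of Panc-1, an established human line of pancreatic ductal carcinoma. They are *GOLGA4*, *GOLGB1* and *GCC2* of the Golgi, *EEA1* of the early endosome, *AKAP9*, *CEP290* and *PCM1* of the centrosome and cilium, *CENPE* and *CENPF* of the mitotic kinetochore, and *ANKRD12*, a nuclear ankyrin repeat protein that belongs to neither the Golgi nor the centrosome. The members were taken by name from a table of 13307 genes, in which all 10 have a row. *GOLGA4*, *AKAP9*, *ANKRD12*, *CENPE* and *CEP290* had been chosen because TGFβ lowered them in these same libraries only after *PHF13* was depleted, so that their values are given as a description, with no test. The other 5 are similar long genes, for which the question was whether the same pattern holds. *PHF13* is a chromatin reader of H3K4 methylation.

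All cells were transfected with siRNA, either a control siRNA (siControl) or siRNAs against *PHF13* (siPHF13), and were then either left without cytokine or given TGFβ at 10 ng/ml, an inducer of epithelial to mesenchymal transition, for 48 h before RNA was taken. This gives 4 groups with 2 libraries each, all from one cell line and one depletion method. Between 39196214 and 46700806 reads were counted on genes in a library, and the 10 genes had between 511 and 16524 reads in a library. *PHF13* itself was at 1804 and 1662 normalized counts in siControl, 1586 and 1710 in siControl with TGFβ, 524.2 and 558.3 in siPHF13 and 512.8 and 529.4 in siPHF13 with TGFβ. The targeted mRNA was thus lower in both groups labelled siPHF13, at 31.2% of siControl without TGFβ and 31.6% with it. The 5 epithelial keratin and adhesion markers examined summed to between 121692 and 203975 normalized counts in a library, with single values from 115.2 to 120045. The highest value of the single leukocyte marker with a row, *CD14*, was 78.7. That of the single fibroblast marker with a row, *PDGFRB*, was 57.1.

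Golgins are long rods that stand on the Golgi membrane and catch passing vesicles with their free ends. Small GTPases of the ARL and RAB families hold several of them on the membrane, and *EEA1* does a similar task on early endosomes together with RAB5. At the centrosome, coiled-coil scaffolds such as *AKAP9* and *PCM1* gather the proteins that nucleate microtubules, and *CENPE* and *CENPF* act in mitosis, when chromosomes are attached to the spindle. A coiled coil is built from repeats rich in glutamate, lysine and leucine, and the codons of glutamate (GAA, GAG) and lysine (AAA, AAG) are rich in adenine.

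This composition is visible in the coding sequences of the members. A stretch of 90 bases from 5 of them is printed here, taken from the window with the most glutamate and lysine codons of the reference transcript (GENCODE, GRCh37, coding strand). These 5 were chosen to show a gene of the Golgi, the nucleus, the kinetochore, the cilium and the endosome. Capitals mark the glutamate and lysine codons.
GOLGA4: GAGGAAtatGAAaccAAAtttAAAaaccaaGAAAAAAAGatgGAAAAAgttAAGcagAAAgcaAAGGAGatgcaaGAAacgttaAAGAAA
ANKRD12: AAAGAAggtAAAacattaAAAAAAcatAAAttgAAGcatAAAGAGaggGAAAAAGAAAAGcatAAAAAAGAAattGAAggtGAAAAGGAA
CENPE: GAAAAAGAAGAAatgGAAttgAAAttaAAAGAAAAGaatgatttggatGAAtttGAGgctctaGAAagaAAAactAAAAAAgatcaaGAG
CEP290: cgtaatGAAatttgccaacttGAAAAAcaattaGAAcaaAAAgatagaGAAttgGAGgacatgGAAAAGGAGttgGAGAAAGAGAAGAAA
EEA1: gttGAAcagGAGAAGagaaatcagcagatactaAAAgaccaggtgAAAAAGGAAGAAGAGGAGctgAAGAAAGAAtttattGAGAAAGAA

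The *GOLGA4* window lies in exon 16 of 25 at chr3:37366204-37366293 on the plus strand and holds 17 glutamate or lysine codons of 30. The *ANKRD12* window is in exon 9 of 13 at chr18:9255198-9255287 on the plus strand, where 20 codons of 30 are of these kinds. For *CENPE* it is exon 16 of 47 at chr4:104095893-104095982 on the minus strand, with 16 such codons, for *CEP290* exon 6 of 56 at chr12:88530432-88530521 on the minus strand, with 15, and for *EEA1* exon 25 of 29 at chr12:93172900-93172989 on the minus strand, with 16. All 5 windows are exonic and coding.

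Over the whole coding sequence, adenine made up between 35.6% (*PCM1*) and 42.0% (*CENPE*) of the bases of the 10 members, against a median of 25.5% over the genes of the table. *CENPE* lay above 99.9% of genes in this share, *GOLGA4* and *ANKRD12* above 99.6%, and *PCM1* above 96.1%. Codons for glutamate and lysine made up between 17.9% (*PCM1*) and 28.9% (*GOLGA4*) of all codons, with a median of 12.6% over all genes. Their transcripts ran from 6.91 kb (*GCC2*) to 13.92 kb (*AKAP9*), where the median gene had 3.54 kb, and their GC content was between 34.7% (*EEA1*) and 42.0% (*GOLGB1*), with a median of 48.8%. The members were chosen as long genes, so that their length is no finding. The other features were not compared with those of other long coiled-coil proteins and are given as a description.

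The genes lie on 8 chromosomes (GRCh37). *GOLGA4* spans chr3:37284682-37408370, *GOLGB1* chr3:121382046-121468813, *GCC2* chr2:109065563-109125871, *EEA1* chr12:93164413-93323107 and *CEP290* chr12:88442793-88535876. *AKAP9* spans chr7:91570154-91739987, *PCM1* chr8:17780351-17887457, *CENPE* chr4:104026506-104119602, *CENPF* chr1:214776528-214837917 and *ANKRD12* chr18:9136226-9285983. The annotation places exons of another gene on the opposite strand over 18.5% of the exon bases of *EEA1* (*PLEKHG7*), 4.59% of those of *CEP290* (*C12orf29*) and 4.45% of those of *GOLGA4* (*GOLGA4-AS1*). For the other members this share was 1.21% or less, and a gene on the same strand covers 2.43% of the exon bases of *ANKRD12*. Whether the reads were counted by strand is not given in the sources used here, so that reads from these stretches cannot be told apart. *C12orf29* was at 1423 and 1387 normalized counts in siPHF13 and at 1075 and 1091 in siControl, opposite in order to *CEP290*. *CYP51A1*, over 0.776% of the exon bases of *AKAP9*, was lower with depletion, as was *AKAP9*. Its log2 fold change was -0.69 without TGFβ (limma adjusted p = 0.0322) and -0.95 with it (limma adjusted p = 0.00495). *PLEKHG7* and *GOLGA4-AS1* have no row in the table. *GCC2* shares its last exons with the RGPD family, of which 3 genes have a row, and reads between these copies may have been split.

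**Figure D1:**
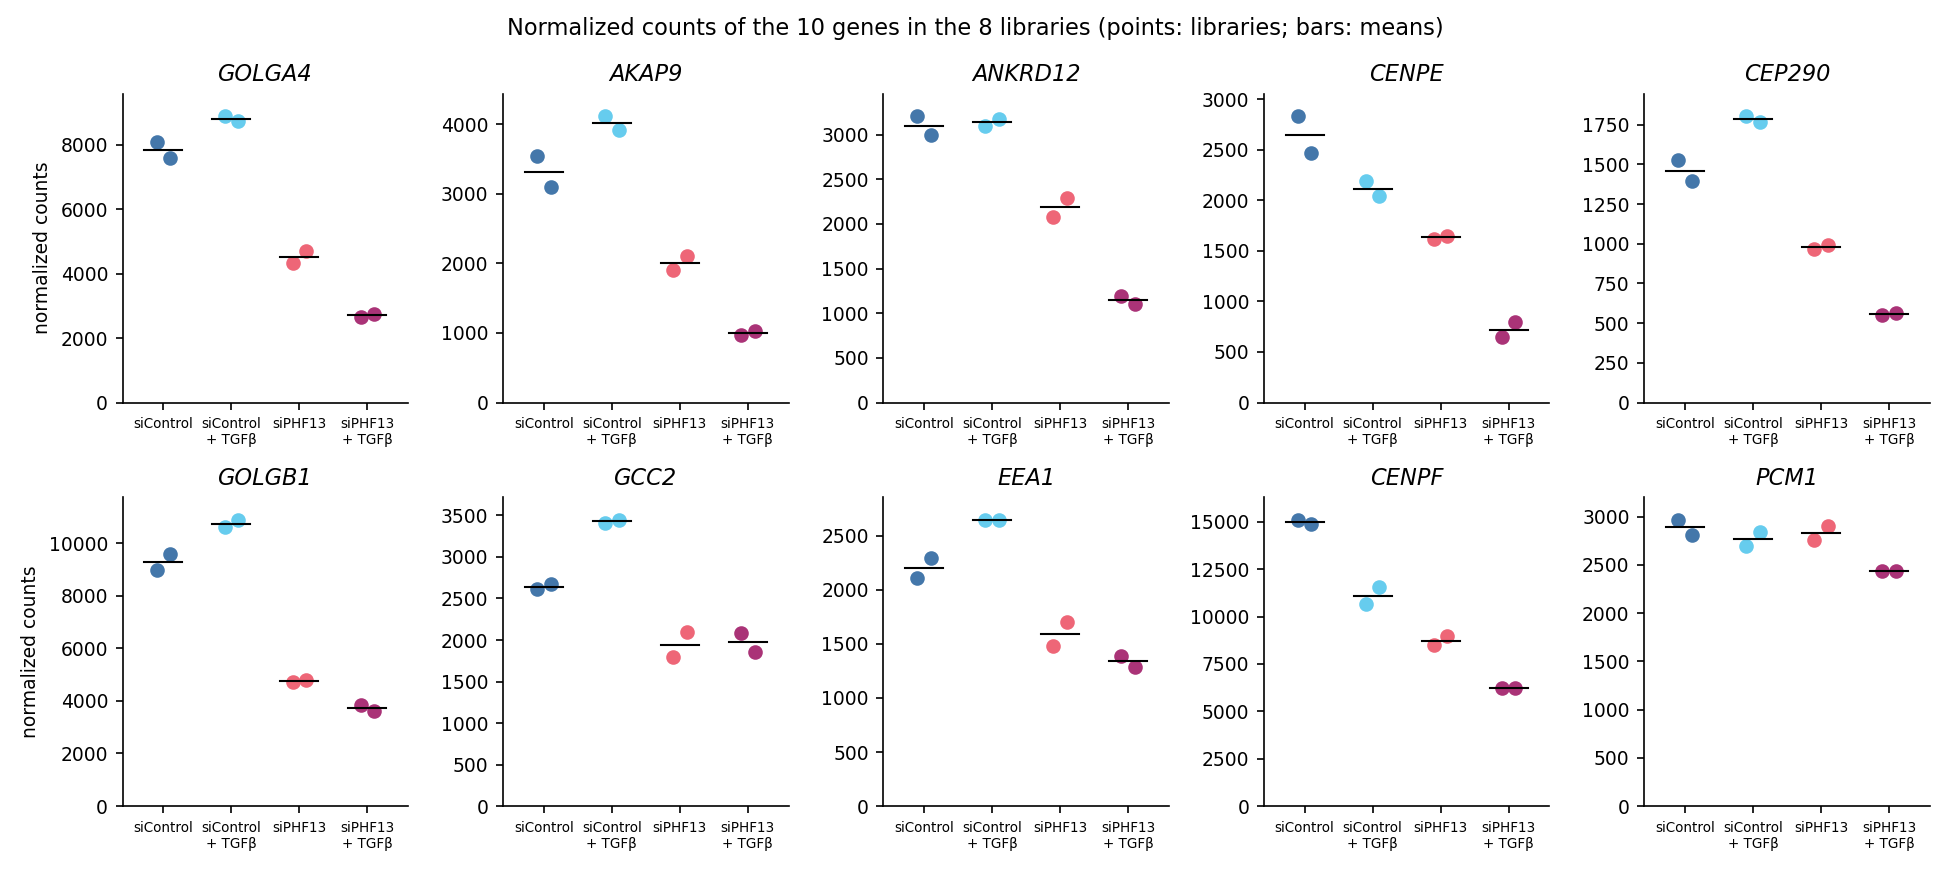
Normalized counts (vertical axes, from 0) of each of the 10 genes in the 4 groups. Points are the 2 libraries of a group and bars are their means. *GOLGA4*, *AKAP9*, *ANKRD12*, *CENPE* and *CEP290* are in the upper row, and *PCM1* in the lower row stays between 2435 and 2967 throughout. In every gene but *GCC2*, both libraries of siPHF13 with TGFβ lie under all 6 others. The share of all genes with this separation was not counted.

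*GOLGA4*, also called golgin-245, is a golgin of the trans-Golgi network that ARL1 recruits. Its normalized counts were 8076 and 7596 in siControl, 8875 and 8727 in siControl with TGFβ, 4340 and 4690 in siPHF13 and 2651 and 2758 in siPHF13 with TGFβ. The 4 groups did not overlap, and the order of the depleted groups under TGFβ was the opposite of that in the control groups. In siPHF13 cells the mean with TGFβ was 59.9% of that without (log2 fold change -0.74, SE 0.06), whereas in siControl cells it was 112.3% (0.17, SE 0.06).

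*AKAP9* anchors protein kinase A and binds the γ-tubulin complex at the centrosome and the cis-Golgi. It was at 3542 and 3096 normalized counts in siControl, 4111 and 3917 in siControl with TGFβ, 1906 and 2103 in siPHF13 and 973.7 and 1027 in siPHF13 with TGFβ. The mean with TGFβ was thus 49.9% of that without in siPHF13 cells and 120.9% in siControl cells. The difference between both responses, which is the interaction on the log2 scale, was -1.28 (SE 0.12) and the most negative of the 10 members.

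*CEP290*, a protein of the transition zone at the base of the cilium, followed the same order at lower counts. It had 1527 and 1396 normalized counts in siControl, 1803 and 1766 in siControl with TGFβ, 969.8 and 995.3 in siPHF13 and 551.6 and 564 in siPHF13 with TGFβ. Again no groups overlapped, and the log2 response to TGFβ was -0.82 (SE 0.09) in siPHF13 cells and 0.29 (SE 0.09) in siControl cells.

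*ANKRD12*, which binds nuclear receptor coactivators, was at 3203 and 2995 normalized counts in siControl and 3093 and 3178 with TGFβ. In siPHF13 it was at 2079 and 2289, and at 1198 and 1101 with TGFβ. The 2 control groups overlapped, with a log2 response of 0.02 (SE 0.08), and the siPHF13 groups stood apart, with a log2 response of -0.92 (SE 0.08).

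*CENPE*, the kinesin that carries chromosomes to the middle of the spindle, differed from the other four in that it was lower with TGFβ in both backgrounds. It was at 2828 and 2467 normalized counts in siControl, 2187 and 2038 in siControl with TGFβ, 1616 and 1649 in siPHF13 and 647.7 and 792.1 in siPHF13 with TGFβ. The mean with TGFβ was 79.8% of that without in siControl cells (log2 fold change -0.32, SE 0.10) and 44.1% in siPHF13 cells (-1.19, SE 0.10). *CENPE* therefore meets the description of a fall only after depletion by its call, not by its sign.

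*GOLGB1*, or giantin, spans the membrane of the Golgi stack, and was the only one of the other 5 whose responses to TGFβ differed between both backgrounds past an adjusted p of 0.05. It was at 8986 and 9585 normalized counts in siControl, 10604 and 10880 in siControl with TGFβ, 4722 and 4781 in siPHF13 and 3842 and 3608 in siPHF13 with TGFβ. The groups did not overlap, and the direction of the TGFβ response was opposite in both backgrounds, as for *GOLGA4*. The log2 response was 0.21 in siControl cells (SE 0.06, limma adjusted p = 0.0332) and -0.35 in siPHF13 cells (SE 0.06, limma adjusted p = 0.00486). The interaction was -0.56 (SE 0.09, limma adjusted p = 0.0107), short of the fold threshold of 0.58 that the study used. As these are bulk samples, fewer cells that express a gene and less of its mRNA per cell cannot be told apart, here and for all other members.

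*GCC2*, also called GCC185, is a golgin of the trans-Golgi network that receives carriers from endosomes. It was at 2610 and 2670 normalized counts in siControl and 3410 and 3447 with TGFβ, which is 129.9% of the mean without (log2 fold change 0.38, SE 0.08, limma adjusted p = 0.00761). In siPHF13 it was at 1796 and 2092, and with TGFβ at 2088 and 1858. The latter groups overlapped entirely, with a log2 response of 0.02 (SE 0.08, limma adjusted p = 0.948). The interaction of -0.35 (SE 0.12) did not pass the test (limma adjusted p = 0.302), which does not show that both responses of *GCC2* were alike.

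*EEA1* tethers early endosomes through RAB5 and the lipid PI3P. It was at 2107 and 2293 normalized counts in siControl, 2646.7 and 2647.5 in siControl with TGFβ, 1484 and 1702 in siPHF13 and 1388 and 1288 in siPHF13 with TGFβ. The order of the group means was that of *GOLGA4* and *GOLGB1*. The log2 response was 0.27 in siControl cells (SE 0.09, limma adjusted p = 0.0475) and -0.25 in siPHF13 cells (SE 0.09, limma adjusted p = 0.172), and the interaction of -0.52 (SE 0.12) missed the threshold (limma adjusted p = 0.109).

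*CENPF*, a large protein of the kinetochore and the nuclear envelope in G2 and mitosis, was lower with TGFβ to a similar degree in both backgrounds. It had 15103 and 14888 normalized counts in siControl, 10647 and 11548 with TGFβ, 8495 and 8964 in siPHF13 and 6240 and 6230 in siPHF13 with TGFβ. Its mean with TGFβ was 74.0% of that without in siControl cells (log2 fold change -0.44, SE 0.06, limma adjusted p = 0.000238) and 71.4% in siPHF13 cells (-0.48, SE 0.06, limma adjusted p = 0.000341). The interaction was -0.05 (SE 0.09, limma adjusted p = 0.918), and a correction for transcript length and GC content turned its sign to 0.04.

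*PCM1*, the scaffold of centriolar satellites, had the narrowest range over the 8 libraries. It was at 2967 and 2814 normalized counts in siControl, 2698 and 2844 in siControl with TGFβ, 2762 and 2908 in siPHF13 and 2442 and 2435 in siPHF13 with TGFβ. The first 3 groups overlapped and the last lay below them. The interaction was -0.16 (SE 0.10, limma adjusted p = 0.689), and the log2 response to TGFβ was -0.22 in siPHF13 cells (SE 0.07, limma adjusted p = 0.133) and -0.06 in siControl cells (SE 0.07, limma adjusted p = 0.626).

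**Figure D2:**
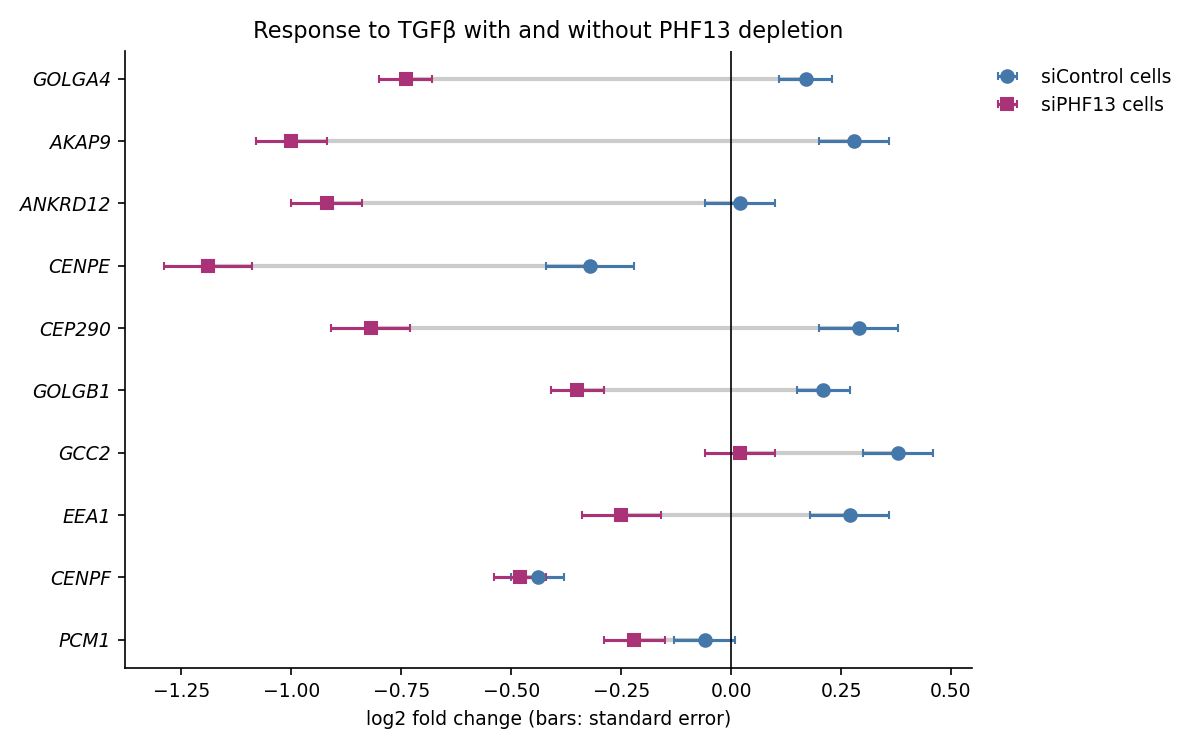
Log2 fold change of each gene with TGFβ against without (horizontal axis) in siControl cells (circles) and siPHF13 cells (squares), with standard errors as bars. For *GOLGA4*, *AKAP9*, *ANKRD12*, *CEP290*, *GOLGB1* and *EEA1* both symbols lie on opposite sides of 0, whereas those of *CENPF* nearly coincide at -0.44 and -0.48.

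Counted over the members, a gene was called when its limma adjusted p was under 0.05 and its absolute log2 fold change over 0.58. In siPHF13 cells TGFβ lowered 0.218% of all genes by this rule and raised 1.13%. The first 5 were chosen on this contrast and are not counted. Their log2 fold change nearest to the threshold was that of *GOLGA4* (-0.74), and the nearest beyond it among the members was that of *CENPF* (-0.48). Of the other 5, limma called 0 here, and edgeR and DESeq2 on recovered reads also called 0. At an unadjusted limma p under 0.05, 4 of them were lower. What share of all genes passes this looser rule was not counted, so that its counts, here and below, have no background. In siControl cells, where 1.52% of all genes were called lower and 3.27% higher, all 3 tools called 0 of the other 5, with 3 higher and 1 lower at an unadjusted p under 0.05.

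For the interaction, 0.248% of all genes were called negative and 0.0601% positive. The estimates of all 10 members were below 0, from -1.28 (*AKAP9*) to -0.05 (*CENPF*), with a median of -0.71 against -0.01 over all genes. Of the other 5, 0 were called by limma, edgeR or DESeq2, and 3 were negative at an unadjusted p under 0.05. Leaving out replicate 1 of siPHF13 with TGFβ brought *GOLGB1* past both thresholds, at -0.61. The other 5 thus had interactions of smaller size than the first 5, which ranged from -1.28 to -0.86, and the first 5 were chosen on this very difference.

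Depletion of *PHF13* without TGFβ was the second axis of the pattern. All 10 estimates were below 0 in this contrast, with a median of -0.63 against 0.00 over all genes, and *GOLGB1* was the most negative of all members. The rule called 10.4% of all genes lower and 7.95% higher. Among the other 5 it called *GOLGB1* (log2 fold change -0.97, SE 0.06, limma adjusted p = 5.4e-08) and *CENPF* (-0.78, SE 0.06, limma adjusted p = 2.98e-07), which makes 2 of 5. *GCC2* (-0.45, SE 0.08, limma adjusted p = 0.000701) and *EEA1* (-0.47, SE 0.09, limma adjusted p = 0.000505) passed the test but not the fold threshold. *PCM1* was at 98.1% of its siControl mean (-0.03, SE 0.07, limma adjusted p = 0.764). The first 5 lay between -0.80 (*GOLGA4*) and -0.51 (*ANKRD12*), and these values are from libraries that also entered their choice.

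With TGFβ on both sides, the depleted cells were lower still. The log2 fold changes of the first 5 were -2.0 (SE 0.08) for *AKAP9*, -1.70 (SE 0.06) for *GOLGA4*, -1.68 (SE 0.09) for *CEP290*, -1.56 (SE 0.10) for *CENPE* and -1.45 (SE 0.08) for *ANKRD12*, so that *AKAP9* was left at 24.9% of its level in siControl with TGFβ. The rule called 11.7% of all genes lower and 8.81% higher in this contrast, and 4 of the other 5 lower. These were *GOLGB1* (-1.53, SE 0.06, limma adjusted p = 9.31e-10), *EEA1* (-0.98, SE 0.09, limma adjusted p = 6.7e-07), *CENPF* (-0.83, SE 0.06, limma adjusted p = 1.46e-07) and *GCC2* (-0.80, SE 0.08, limma adjusted p = 4.25e-06). *PCM1* was at 88.0% (-0.18, SE 0.07, limma adjusted p = 0.0385), and the correction for transcript length and GC content turned this to 0.05. The median of the 10 members was -1.49, against 0.00 over all genes. Both depletion contrasts share their libraries with the TGFβ contrasts, so that the values stand side by side and do not add evidence to each other.

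**Figure D3:**
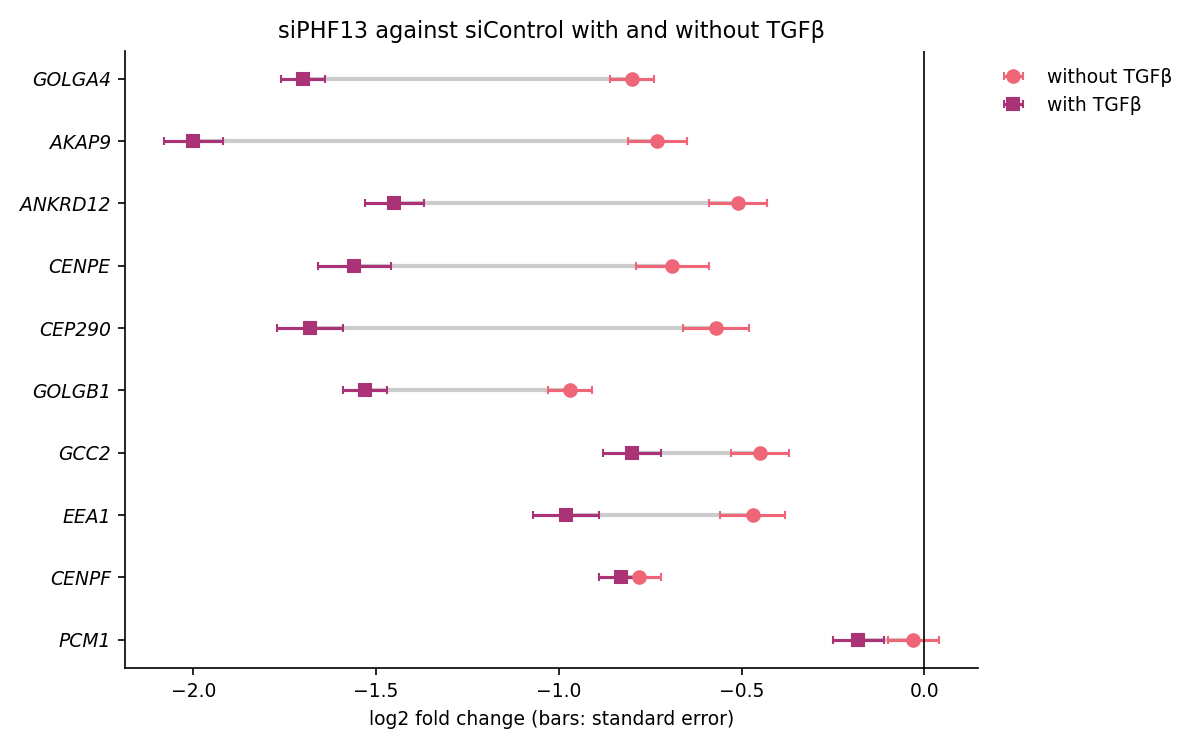
Log2 fold change of siPHF13 against siControl for each gene (horizontal axis) without TGFβ (circles) and with TGFβ (squares), with standard errors as bars. The squares of the first 5 genes and of *GOLGB1* lie between -2.0 and -1.45, and those of *PCM1* nearest to 0.

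Per kb of transcript, the order of the members also changed. In siControl the mean levels, in normalized counts per kb, were 1460 for *CENPF*, 991 for *GOLGA4*, 829 for *GOLGB1*, 382 for *GCC2*, 334 for *PCM1*, 303 for *CENPE*, 275 for *ANKRD12*, 238 for *AKAP9*, 224 for *EEA1* and 168 for *CEP290*. Neighbours in this order whose libraries overlapped were *CENPE* with *ANKRD12* and *AKAP9* with *EEA1*. In siPHF13 with TGFβ, *GOLGA4* (342) and *GOLGB1* (333) overlapped, as did *GCC2* (286) and *PCM1* (282), and *CENPE* (82.4) and *AKAP9* (71.9) came after *EEA1* (136) and *ANKRD12* (102). *CENPF* stayed first at 606 and *CEP290* last at 64.1.

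The 10 profiles over the 8 libraries were alike to different degrees. Against the mean log2 profile of the other 9, Pearson's r rounded to 1.00 for *GOLGA4* and was 0.99 for *AKAP9* and *CEP290*, 0.98 for *ANKRD12*, 0.96 for *GOLGB1*, 0.95 for *EEA1*, 0.93 for *CENPE* and 0.91 for *CENPF*. *GCC2* (0.82) and *PCM1* (0.78) followed it least. These are descriptions over 8 points in 4 groups, and points of one group share their treatment. Ranked among 11191 other genes whose mean reached 100 normalized counts, the 6 closest to the mean profile of the members were *CUX2* (r = 0.995), *FAM208A* (0.993), *TOM1L1* (0.990), *LRRFIP1* (0.990), *SLC25A20* (0.990) and *ZBTB43* (0.989). Of these, *CUX2*, a homeodomain transcription factor, moved most. It was at 179.3 and 158.6 normalized counts in siControl, 187.6 and 166.6 with TGFβ, 88.5 and 88.8 in siPHF13 and 48.6 and 42.3 in siPHF13 with TGFβ. *FAM208A*, now called *TASOR*, followed the profile at a small scale, with a log2 fold change of -0.33 for depletion with TGFβ. The coding sequence of *SLC25A20*, the carnitine carrier of mitochondria, has 0.90 kb and 22.6% adenine. Its interaction of -0.48 (SE 0.17) passed neither threshold. These 6 genes were picked for their likeness to a mean that includes the first 5, so that their values are a description.

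Library properties were compared with the members, since their transcripts are long and poor in GC. The 490 other genes of at least 7 kb with a GC content under 40% had median log2 fold changes of -0.05 for TGFβ in siPHF13 cells, 0.01 for TGFβ in siControl cells, -0.07 for the interaction, -0.11 for depletion without TGFβ and -0.19 for depletion with TGFβ. The other 5 members, which were taken as similar long genes, had medians of -0.25, 0.21, -0.35, -0.47 and -0.83. The medians of all 10 were -0.61, 0.19, -0.71, -0.63 and -1.49, which the choice of the first 5 on the TGFβ responses of these libraries makes a description only. The median of this class thus had the sign of that of the members in each contrast, at a smaller size. By length alone, the median for depletion with TGFβ went from 0.16 in 2636 genes under 2 kb to -0.15 in 1760 genes of 7 kb or more. After each library was corrected for length and GC content, the median of the members for depletion with TGFβ was -1.25, that for depletion without it -0.48 and that for the interaction -0.63, and TGFβ in siPHF13 cells was at -0.57.

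Replicate 2 of siPHF13 with TGFβ stood apart from replicate 1 in this respect. In it, genes of 7 kb or more deviated by -0.15 from their mean over the 8 libraries and genes under 2 kb by 0.13, against -0.01 and 0.03 in replicate 1. The members deviated by -0.82 in replicate 1 and -0.90 in replicate 2. Without replicate 2, the median of the members was -0.62 for TGFβ in siPHF13 cells and -1.44 for depletion with TGFβ. With both libraries these medians were -0.61 and -1.49, and without replicate 1 the former was -0.60. Members chosen on the TGFβ responses of these libraries enter these medians, which are therefore a description only.

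**Figure D4:**
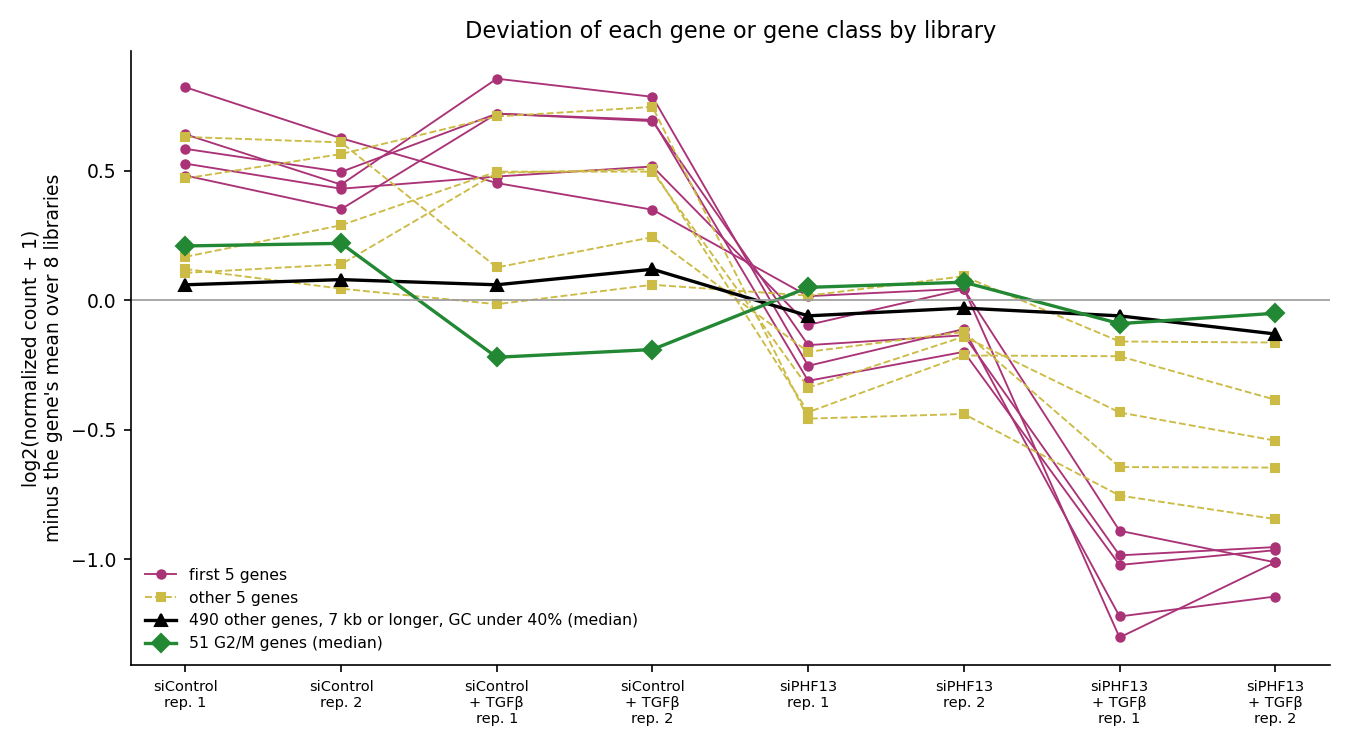
Deviation of log2(normalized count + 1) from each gene's mean over the 8 libraries (vertical axis) by library (horizontal axis). Solid purple lines with circles are *GOLGA4*, *AKAP9*, *ANKRD12*, *CENPE* and *CEP290*, dashed yellow lines with squares the other 5 genes, black triangles the median of the 490 other genes of at least 7 kb with a GC content under 40%, and green diamonds the median of the 51 G2/M genes, and lines only join the points of one gene or class. In siPHF13 with TGFβ all 10 genes lie below 0, from *PCM1* at -0.16 in both libraries to *CENPE* at -1.30 in replicate 1, and the black median is at -0.06 and -0.13.

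*CENPE* and *CENPF* belong to the mitotic program, and the G2/M genes moved with one part of their pattern. The 51 G2/M genes with a row, without *CENPE* and *CENPF*, had a median log2 fold change of -0.45 for TGFβ in siControl cells. All 51 were below 0, against 6800 of all 13307 genes, and 6 were called lower (11.8%, against 1.52% of all genes). *NEK2*, a centrosomal kinase, was the lowest of those called (-0.75, SE 0.08, limma adjusted p = 2.12e-05). In siPHF13 cells their median was -0.16 and 1 was called lower (1.96%, against 0.218% of all genes), the mitotic kinesin *KIF20B* (-0.60, SE 0.08, limma adjusted p = 0.000355). For *CENPF* at -0.44 and -0.48, and for *CENPE* at -0.32 and -1.19, the first value is thus near the median of the G2/M genes and the second is not. For depletion with TGFβ the G2/M median was 0.12, with *KIF2C* called higher (0.67, SE 0.07, limma adjusted p = 2.25e-06) and *ANLN* lower (-0.72, SE 0.05, limma adjusted p = 2e-07), while *CENPE* was at -1.56 and *CENPF* at -0.83. Without TGFβ their median was -0.16 and *ANLN*, a scaffold of the cytokinetic ring, was the single one called (-0.95, SE 0.05, limma adjusted p = 1.93e-08). This is 1.96% called lower, against 10.4% of all genes. For the interaction the median was 0.28, against -0.86 for *CENPE*, and *NEK2* was the single one called (0.64, SE 0.11, limma adjusted p = 0.0208). The part of the cell cycle in the levels of *CENPE* and *CENPF* was not tested.

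Of 16 kinetochore genes, 2 were called lower (12.5%, against 1.52% of all genes) and 1 higher with TGFβ in siControl cells, where 3.27% of all genes were called higher. The largest fall was that of *SPC25*, a subunit of the NDC80 complex (-0.64, SE 0.13, limma adjusted p = 0.00297), and the rise was that of *SPDL1*, an adaptor of dynein (0.67, SE 0.07, limma adjusted p = 1.72e-05). Their median was -0.45 in siControl cells and -0.09 in siPHF13 cells, where limma, edgeR and DESeq2 called 0 and 3 were lower and 1 higher at an unadjusted p under 0.05. Depletion without TGFβ lowered 2 (12.5%, against 10.4% of all genes), led by *ZWINT* (-0.85, SE 0.08, limma adjusted p = 9.96e-07), and raised 2, led by *ZW10* (0.96, SE 0.09, limma adjusted p = 2.52e-06). *ZW10* is a subunit of the RZZ complex of the kinetochore and *ZWINT* its partner. Depletion raised 7.95% of all genes without TGFβ and 8.81% with it. With TGFβ it raised 2 of the 16, led by *SPC24* (1.13, SE 0.09, limma adjusted p = 2.11e-07), and the list median was 0.19. *CENPE* and *CENPF* were at -1.56 and -0.83 in that contrast. For the interaction the 3 tools called 0, and 12 were positive and 1 negative at an unadjusted p under 0.05 (median 0.30).

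The 13 other golgins and Golgi tethers had the lowest list median for depletion with TGFβ, -0.49, and 6 of 13 were called lower, against the background of 11.7%. The lowest was *C10orf118*, now called *CCDC186*, at 2139 and 2099 normalized counts in siControl, 2568 and 2563 with TGFβ, 1437 and 1494 in siPHF13 and 1419 and 1279 in siPHF13 with TGFβ (log2 fold change -0.93, SE 0.08, limma adjusted p = 4.44e-07). *BICD2*, an adaptor between RAB6 and dynein, was called higher instead, with and without TGFβ (1.42, SE 0.09, limma adjusted p = 4.15e-08 and 1.57, SE 0.09, limma adjusted p = 1.94e-08). Without TGFβ 2 of 13 were called lower (15.4%, against 10.4% of all genes), led by *GORAB* (-0.73, SE 0.11, limma adjusted p = 0.000122), and the median was -0.22. For the interaction 12 of 13 were below 0 (6875 of all 13307 genes), with a median of -0.15. Here limma, edgeR and DESeq2 called 0, with 4 negative and none positive at an unadjusted p under 0.05, and the 3 tools also called 0 for TGFβ in siControl cells (median 0.14, with 6 higher at an unadjusted p under 0.05) and in siPHF13 cells (median -0.06, with 2 lower).

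*TRIP11*, or GMAP-210, a golgin of the cis-Golgi that was named after its values had been seen, passed the test of the interaction without reaching the fold threshold (-0.54, SE 0.09, limma adjusted p = 0.0183). Its mean with TGFβ was 101.5% of that without in siControl cells and 69.6% in siPHF13 cells (log2 fold change -0.52, limma adjusted p = 0.000307). The golgin list had a median of -0.06 in the latter contrast. Its coding sequence has 5.94 kb and 38.9% adenine.

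The 9 GTPases and adaptors that hold golgins on the membrane had a median of 0.21 for depletion without TGFβ and of 0.08 with it. *RAB30* was called higher in both (0.78, SE 0.10, limma adjusted p = 3.05e-05 and 0.64, SE 0.10, limma adjusted p = 0.000155), as 1 of 1 and 1 of 2 genes called. Of all genes, 7.95% and 8.81% were called higher in these contrasts. In both TGFβ contrasts and for the interaction limma, edgeR and DESeq2 called 0. At an unadjusted p under 0.05, TGFβ raised 4 and lowered 1 in siControl cells and raised 1 in siPHF13 cells, and 1 interaction was positive. The 14 tethers and effectors of the early endosome also stayed near 0, with medians of -0.01 and -0.07 for depletion without and with TGFβ, where *EEA1* was at -0.47 and -0.98. For these 14 genes the 3 tools called 0 in all 5 contrasts. At an unadjusted p under 0.05, depletion lowered 4 and raised 4 without TGFβ and lowered 6 and raised 4 with it, TGFβ raised 2 in siControl cells and lowered 1 in siPHF13 cells, and 0 interactions passed.

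The 34 centrosome and centriolar satellite genes, most of them also coiled-coil proteins, had medians between -0.12 and 0.04 in the 5 contrasts. For depletion with TGFβ 3 of 34 were called lower (8.82%, against 11.7% of all genes) and 1 higher, where 8.81% of all genes were called higher. *NIN*, or ninein, which anchors microtubules at the mother centriole, was the lowest, at 2915 and 2818 normalized counts in siControl, 2883 and 2995 with TGFβ, 975.8 and 1042 in siPHF13 and 1086 and 894.2 in siPHF13 with TGFβ. Its log2 fold changes of -1.51 without TGFβ (SE 0.09, limma adjusted p = 3.49e-08) and -1.58 with it (SE 0.09, limma adjusted p = 2.01e-08) were of similar size, and its interaction was -0.07 (SE 0.13, limma adjusted p = 0.926), where *AKAP9* was at -1.28 and *CEP290* at -1.10. The single rise was that of *CCP110*, a cap of the centriole (0.60, SE 0.07, limma adjusted p = 1.5e-05). Without TGFβ 2 were called lower (5.88%, against 10.4% of all genes). TGFβ in siControl cells lowered 1 (2.94%, against 1.52% of all genes), *CEP70* (-0.67, SE 0.08, limma adjusted p = 7.71e-05). In siPHF13 cells limma, edgeR and DESeq2 called 0, with 5 lower and 2 higher at an unadjusted p under 0.05, and for the interaction they called 0, with 1 negative and 3 positive.

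The 26 other long coiled-coil proteins had medians below 0 in all 5 contrasts. Their median was -0.28 for depletion with TGFβ, where 5 of 26 were called lower (19.2%, against 11.7% of all genes), led by *CCDC88A*, or girdin (-0.97, SE 0.06, limma adjusted p = 4.76e-08). Without TGFβ it was -0.22, with 3 of 26 called lower (11.5%, against 10.4% of all genes), led by the kinase *ROCK2* (-0.70, SE 0.07, limma adjusted p = 2.18e-06). For TGFβ in siPHF13 cells 25 of 26 were below 0 (6953 of all 13307 genes), with a median of -0.15. *KIF20B*, which is also in the G2/M list, was the one called (3.85%, against 0.218% of all genes). In siControl cells 18 were below 0 (median -0.08), as were 6800 of all 13307 genes. The 3 tools called 0 there, with 11 lower and 3 higher at an unadjusted p under 0.05. For the interaction (median -0.14) they called 0, with 9 negative and 1 positive. The nuclear-retained RNAs *MALAT1* and *NEAT1* have no row in the table.

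A split by the coding sequence, chosen after the values had been seen and therefore not tested, set length and adenine content side by side in the genes that are no members. Among 803 genes with a coding sequence of 4 kb or more and under 32% adenine, the median log2 fold change for depletion with TGFβ was -0.13. In 163 genes of this length with 32% to 38% adenine it was -0.28, and in the 12 with 38% or more it was -0.50. Among genes with a coding sequence under 2 kb the same classes were at 0.05 (7887 genes), 0.01 (1104) and -0.06 (110). For TGFβ in siPHF13 cells the 3 classes of long genes were at -0.04, -0.11 and -0.32, and those of short genes at 0.01, -0.02 and -0.01.

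Of the 19 genes in the class of long coding sequences with 38% or more adenine, 7 are members and the other 12 are no members, among them *CCDC88A*, *KIF20B*, *KTN1*, *TRIP11*, *UACA* and *ANKRD26*. With TGFβ in siPHF13 cells 11 of these 12 were below 0, and with depletion under TGFβ 9 of 12. Over all 13307 genes, 6953 and 6615 were below 0 in these contrasts. *CCDC144A*, also in this class and below 0 in both, had a mean of only 14.7 normalized counts (SE 0.60). *CCDC88A*, *KIF20B*, *KTN1* and *TRIP11* are also counted in the lists above. *KTN1*, a kinesin receptor of the endoplasmic reticulum, had a log2 fold change of -0.66 for depletion with TGFβ (limma adjusted p = 1.55e-06). Above 0 in this contrast were *CCDC7* (0.76, limma adjusted p = 0.0126), *ATAD5* (0.38, limma adjusted p = 0.00446) and *CCDC18* (0.13, limma adjusted p = 0.445). Genes of the same composition thus differed. *GOLGB1*, *CENPF* and *PCM1* are the members under 38% adenine.

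**Figure D5:**
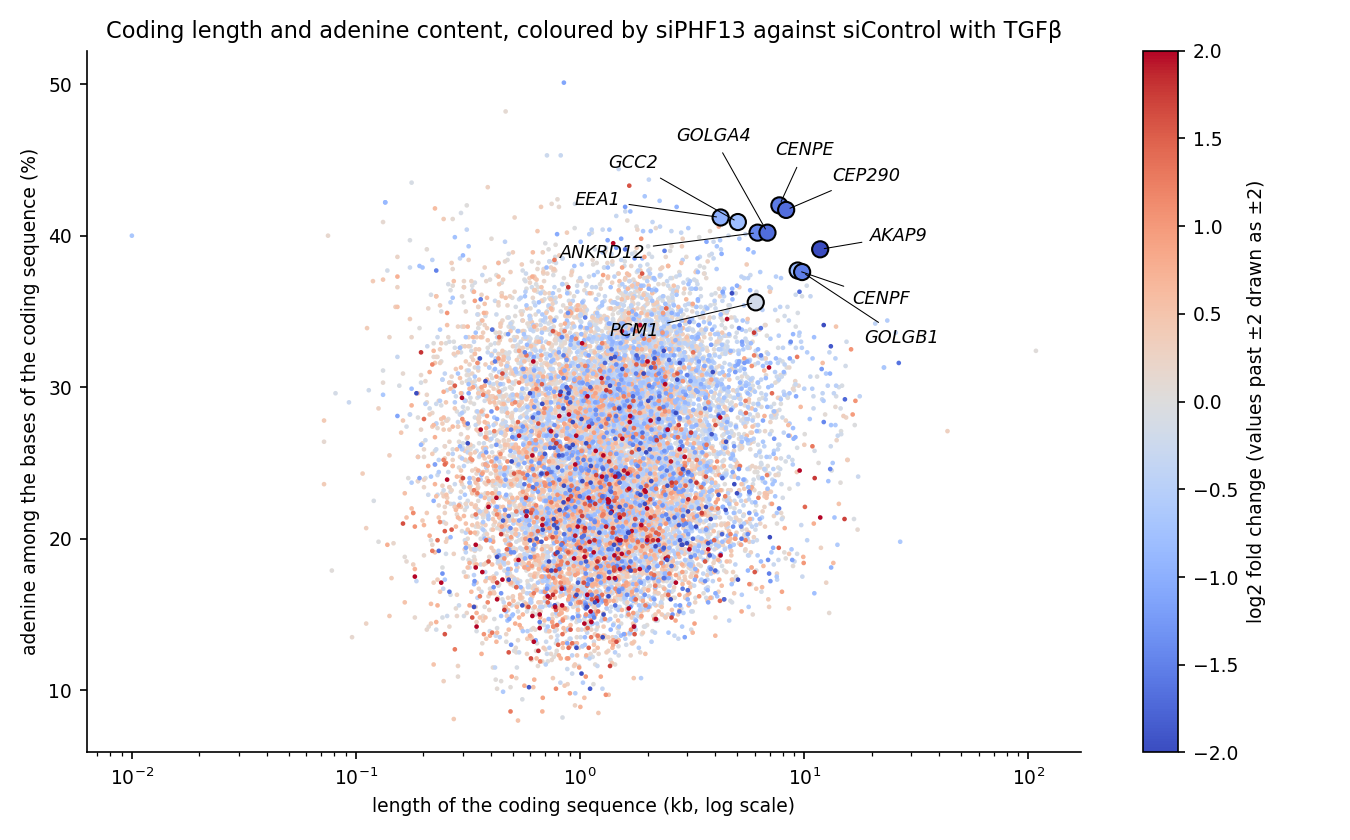
Length of the coding sequence (horizontal log axis, in kb) against its share of adenine (vertical axis, in percent) for 13050 genes, coloured by the log2 fold change of siPHF13 against siControl with TGFβ. Large outlined points are the 10 members, which lie at the upper right edge of all genes and are blue except *PCM1*.

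Promoters of 8 members had an entry in the RefSeq windows (GRCh38.p14, from 250 bases before the start to 50 after it), and *GOLGA4* and *PCM1* had none. For *AKAP9* there were 2 windows, which were counted together. The windows of *GOLGB1*, *CENPE* and *CENPF* are shown because these genes share the fall with depletion and differ in their response to TGFβ. Capitals mark CCAAT on either strand (read as ATTGG on the other) and TTTGAA (read as TTCAAA).
GOLGB1: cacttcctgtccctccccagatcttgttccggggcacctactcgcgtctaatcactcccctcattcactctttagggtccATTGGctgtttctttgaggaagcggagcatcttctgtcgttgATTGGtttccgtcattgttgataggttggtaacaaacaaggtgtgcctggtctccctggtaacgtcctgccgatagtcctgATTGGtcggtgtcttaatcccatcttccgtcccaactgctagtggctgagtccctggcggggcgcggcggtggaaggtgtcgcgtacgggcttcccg
CENPE: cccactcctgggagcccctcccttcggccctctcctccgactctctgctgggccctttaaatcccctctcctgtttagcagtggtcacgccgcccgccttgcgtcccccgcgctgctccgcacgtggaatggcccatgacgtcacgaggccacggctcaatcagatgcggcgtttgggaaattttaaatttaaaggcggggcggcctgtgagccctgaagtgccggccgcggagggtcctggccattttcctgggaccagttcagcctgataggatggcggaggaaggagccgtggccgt
CENPF: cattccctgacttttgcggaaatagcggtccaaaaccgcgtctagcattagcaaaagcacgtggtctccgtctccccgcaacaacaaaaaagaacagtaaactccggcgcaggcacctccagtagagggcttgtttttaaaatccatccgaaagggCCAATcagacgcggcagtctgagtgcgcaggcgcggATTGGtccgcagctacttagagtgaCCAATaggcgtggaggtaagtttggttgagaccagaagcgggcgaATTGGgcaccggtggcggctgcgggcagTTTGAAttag

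The *GOLGB1* window is chr3:121749692-121749991 on the minus strand, that of *CENPE* chr4:103198294-103198593 on the minus strand and that of *CENPF* chr1:214602945-214603244 on the plus strand. *CENPF* held 4 CCAAT and 1 TTTGAA, *GOLGB1* held 3 CCAAT, and *CENPE* held neither. CCAAT, the box bound by NF-Y, was in 4 of the 8 promoters and in 34.6% of the 35116 windows of all genes. TTTGAA, the core of the CHR element of cell cycle genes, was in 3 of 8 and in 15.2% of all. The SMAD box CAGAC was in 5 of 8 (45.3% of all), the Sp1 box GGGCGG in 6 of 8 (45%) and TATAAA in 1 of 8 (11.5%), each searched on both strands with no overlap between these motifs in their letters. These are counts over 8 promoters, and the letters say nothing about binding of the factors in these cells.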

How the data were processed

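mRNA of Panc-1 cells was sequenced in 4 groups of 2 libraries, performed in duplicate. Per the submitters' processing notes, Trim Galore 0.4.1 trimmed the reads (paired-end), STAR 2.7.0 mapped them to hg19, HTSeq 0.12.4 counted them on exons, and the authors normalized these counts with DESeq2. The deposited signal is a count divided by a size factor of its library. The annotation release and the strand setting are not given in the sources used here. The 3 tables of the authors' own comparisons (group means, log2 fold changes, standard errors, p-values and adjusted p-values) were not used. That replicates came from separate cultures is not stated, so that p-values measure only the spread between these libraries.

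A single limma-trend model (limma 3.58.1, R 4.3.3) of all 8 libraries, fitted to log2 values of the normalized count with a pseudocount of 1, gave all 5 contrasts, with Benjamini-Hochberg adjustment over 13307 genes. A minimum of 10 in 2 libraries removed no gene. The thresholds of a call were those of the study, 0.05 for the adjusted p and 0.58 for the size of the log2 fold change. Values were whole multiples of the worth of 1 read in all 8 libraries (100% within a tolerance of 1e-06), and edgeR 4.0.16 and DESeq2 1.42.0 were run on these reads as alternatives. The fit was tested on simulated data. Lengths and GC content came from GENCODE lifted to GRCh37 and were found for 98.6% of genes, 810 of them by an older symbol.

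The members and gene lists were chosen with earlier results of these data known. G2/M genes are those of Seurat 5.3.0. The lists share some genes, such as *NDC80*, *NUF2* and *BUB1* of the kinetochore and G2/M lists, so that they are not independent. Named genes are the 10 members, *PHF13*, the called gene with the largest rise and the largest fall in each list and contrast (mean of at least 100 normalized counts, libraries not overlapping) and the 6 genes closest to the members' mean profile. *TRIP11*, *HMGB2* and the genes of the split by adenine content were named after their values had been seen. Alternatives were a pseudocount of 5, no minimum, a minimum mean of 100, TMM factors, the replicate number as a block, a correction for GC content and length (splines of 5 degrees of freedom) with and without that block, no fold threshold, a fit of the 4 libraries compared and each library left out.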

Additional observations from a re-analysis of the deposited data

Results flagged for a closer look

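The responses to TGFβ differed between siPHF13 and siControl cells, by a test of the difference itself, in 1 of the other 5 members and in 3 genes of the lists, and the latter are given because they passed this test. No fold threshold was set here. The share of all genes passing this test was not counted, so that these counts have no background. *GOLGB1* had a difference of -0.56 on the log2 scale (limma adjusted p = 0.0107), with TGFβ counts above those without in both siControl libraries and below them in both siPHF13 libraries. *TRIP11* had a difference of -0.54 (limma adjusted p = 0.0183). *NEK2* had one of 0.64 (limma adjusted p = 0.0208), from 2104 and 2029 to 1244 and 1219 normalized counts with TGFβ in siControl cells and from 1648 and 1751 to 1525 and 1639 in siPHF13 cells. *HMGB2*, also a G2/M gene, had one of 0.52 (limma adjusted p = 0.0176).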

How the results depend on the processing

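A pseudocount of 5, no minimum, a minimum mean of 100, TMM factors, edgeR, DESeq2 and a fit of the 4 libraries compared left each count of the other 5 members called within 1.5 times its value, and each median of the members and of the lists moved by less than the spread between replicates. Without the fold threshold, 2 of the other 5 members were called for TGFβ in siPHF13 cells, 4 in siControl cells, 1 for the interaction and 4 for depletion without TGFβ. The share of all genes called without the fold threshold was not counted, so that these counts have no background. Members chosen on the TGFβ responses of these libraries enter the median of the members, so that its stability is a description only. The members had at least 511 reads in each library.

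The replicate numbers did not pair the samples, since same-numbered libraries correlated between -0.089 and 0.05 in their deviations from the group means. With the replicate block the counts of the other 5 members called were 0, 0, 0, 2 and 4 (TGFβ in siPHF13 and in siControl cells, interaction, depletion without and with TGFβ), as without it.

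The correction for GC content and length gave the same values with and without the replicate block, which is fixed by the design, as each group holds both replicate numbers. Some members had been chosen on the TGFβ responses of these libraries, so that the median of the members is a description only. The correction moved this median to -0.625 for the interaction, -0.483 for depletion without TGFβ and -1.254 with TGFβ. For the centrosome genes it gave 0.090, 0.043 and 0.089 in these contrasts, for the other long coiled-coil proteins -0.053, -0.113 and -0.093, and for the G2/M genes -0.429 with TGFβ in siControl cells, -0.093 for depletion without TGFβ and 0.188 with it. The endosome genes went to 0.091 and -0.002 for depletion without and with TGFβ and the golgins to -0.087 without it. Signs turned for *CENPF* in the interaction (0.038) and for *PCM1* under depletion without TGFβ (0.121) and with it (0.046), none of them called before or after. The cause was not tested.

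With each library left out in turn, the median of the members ranged from -0.714 to -0.562 for depletion without TGFβ. With TGFβ it ranged from -1.488 to -1.435. Members chosen on the TGFβ responses of these libraries enter this median, so that its range is a description only. Of the members not chosen in this way, *GOLGB1* ranged from -1.573 to -1.483 for depletion with TGFβ and *EEA1* from -1.039 to -0.931. In the same contrast *CENPF* ranged from -0.889 to -0.772, *GCC2* from -0.884 to -0.715 and *PCM1* from -0.222 to -0.146. For the interaction *GOLGB1* ranged from -0.609 to -0.516. *GCC2* ranged from -0.087 to 0.133 for TGFβ in siPHF13 cells, *CENPF* from -0.108 to 0.009 for the interaction and *PCM1* from -0.066 to 0.010 for depletion without TGFβ. The list medians for TGFβ in siPHF13 cells ranged from -0.119 to -0.020 (centrosome), -0.143 to -0.034 (kinetochore), -0.227 to -0.107 (other long coiled-coil) and -0.186 to -0.110 (G2/M), and that of the golgins in siControl cells from 0.107 to 0.195. For the interaction they ranged from -0.105 to -0.026 (GTPases), -0.041 to 0.102 (centrosome), 0.277 to 0.360 (kinetochore), -0.078 to 0.008 (endosome), -0.193 to -0.057 (other long coiled-coil) and 0.249 to 0.333 (G2/M). For depletion without TGFβ these were 0.140 to 0.284 (GTPases), -0.171 to -0.117 (kinetochore) and -0.176 to -0.140 (G2/M). With TGFβ they were 0.081 to 0.150 (GTPases), -0.108 to -0.017 (centrosome), 0.170 to 0.278 (kinetochore), -0.149 to 0.002 (endosome), -0.356 to -0.243 (other long coiled-coil) and 0.081 to 0.158 (G2/M).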
